A study of Mus musculus with 12 samples.

Results

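Red cell gas exchange was followed through 5 genes, Car1, Car2, Aqp1, Bpgm and Rhag, out of the 56748 genes counted in murine G1E-ER4 erythroblasts. The genes were taken by symbol, with no threshold on their values, and were chosen with earlier results of these data known. G1E-ER4 cells are proerythroblasts that lack their own GATA1 and hold a fusion of GATA1 with the estrogen receptor, and estradiol sets off their erythroid differentiation. Poly(A) RNA was sequenced at 24 h of estradiol in 3 Sf3b1 K700E/+ and 3 Sf3b1 +/+ libraries, whose cells come from single-cell sorted clones made with CRISPR-Cas9, a hygromycin cassette and its removal by flippase. Each genotype is 1 clone, so a difference between the genotypes cannot be told apart from a difference between the clones. No source ties the libraries to separate cultures, and the p-values below measure the spread between these libraries. The 6 samples before estradiol were not analysed here. Car1 fell, Bpgm rose, and Car2 and Rhag did not pass the test. Aqp1, with 1 read in all, could not be tested.

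Red cells carry carbon dioxide mostly as bicarbonate. Carbonic anhydrase I (Car1) and carbonic anhydrase II (Car2) hydrate carbon dioxide in the cytosol, band 3 (Slc4a1) then exchanges the bicarbonate for chloride, and the protons are taken up by hemoglobin. The Rh-associated glycoprotein (Rhag) is a membrane protein of the Rh complex that conducts ammonia and has been linked to carbon dioxide passage, and aquaporin 1 (Aqp1) is the water channel of mature red cells. Bisphosphoglycerate mutase (Bpgm) makes 2,3-bisphosphoglycerate, which lowers the oxygen affinity of hemoglobin. Several of these genes are known to rise as erythroblasts mature.

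Library totals were 44045337 to 50077827 counts in Sf3b1 K700E/+ and 38785471 to 40702174 in Sf3b1 +/+. Sf3b1 did not pass the test (log2 fold change 0.01), and Gata1, whose reads can come from the fusion, was higher in Sf3b1 K700E/+ (log2 fold change 1.00, standard error [SE] 0.07, edgeR adjusted p = 9.43e-06). All 12 erythroid markers were detected, and their summed level was 12416 to 18599 CPM (counts scaled to library size) in Sf3b1 K700E/+ against 13412 to 17751 CPM in Sf3b1 +/+. Of these markers edgeR called 3 higher and 0 lower (4 and 0 at an unadjusted p under 0.05, 3 and 0 with DESeq2), against 6 and 1 with the replicate number as a block, which pairs libraries of the same number, and likewise 6 and 1 without replicate 1 of both genotypes. Over all tested genes 21.3% were higher and 23.1% lower with edgeR, or 27.7% and 29.2% with the block. Without replicate 1 of both genotypes these shares were 25.3% and 26.9%. Replicate 1 stood apart from the other libraries in both genotypes, and it had the lowest counts of the main adult hemoglobin chains, Hba-a1 and Hbb-bs. The 12 granulocyte and macrophage markers summed to 0.0599 to 0.111 CPM in Sf3b1 K700E/+ and 9.70 to 31.1 CPM in Sf3b1 +/+, with Elane, Ctsg and S100a8 without a read. Together they held 3 to 5 reads in a Sf3b1 K700E/+ library and 385 to 1276 in a Sf3b1 +/+ library. The 3 tested genes thus passed the filter on low counts only through Sf3b1 +/+. That fixed their direction beforehand, and 3 of 3 were called lower. The 8 mast cell, basophil and eosinophil markers summed to 1.02 to 3.50 CPM in Sf3b1 K700E/+ and 10.4 to 35.4 CPM in Sf3b1 +/+, with 3 of 4 tested lower. Here too, a gene with few reads in Sf3b1 K700E/+ could enter the test only through Sf3b1 +/+. The 8 megakaryocyte markers summed to 10.5 to 19.6 CPM in Sf3b1 K700E/+ and 17.6 to 29.1 CPM in Sf3b1 +/+, and lymphoid markers had at most 3 reads in a library. The part of these other lineages in the results below was not tested. In bulk RNA, fewer cells of a type and less RNA per cell cannot be told apart.

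Per kilobase of exon, Car2 was the most abundant of the 4 tested genes in both genotypes, at 410 ± 23.1 CPM per kb (SD, n = 3) in Sf3b1 K700E/+ against 467 ± 27.5 CPM per kb (SD, n = 3) in Sf3b1 +/+. Rhag came next, at 189 ± 2.49 CPM per kb (SD, n = 3) and 179 ± 2.22 CPM per kb (SD, n = 3). Both lay above the 98th percentile of the tested genes in both genotypes. Car1 was at 19.5 ± 0.950 CPM per kb (SD, n = 3) in Sf3b1 K700E/+ against 51.4 ± 6.51 CPM per kb (SD, n = 3) in Sf3b1 +/+, which is the 76.4 and the 91.5 percentile. Bpgm was the lowest of the 4, at 14.3 ± 1.42 CPM per kb (SD, n = 3) and 10.3 ± 0.236 CPM per kb (SD, n = 3). The order Car2, Rhag, Car1, Bpgm was the same in both genotypes, and no neighbours in it overlapped between libraries. Car1 and Bpgm came nearest to each other in Sf3b1 K700E/+, where Car1 ranged from 18.5 to 20.4 and Bpgm from 12.6 to 15.2 CPM per kb.

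**Figure D1:**
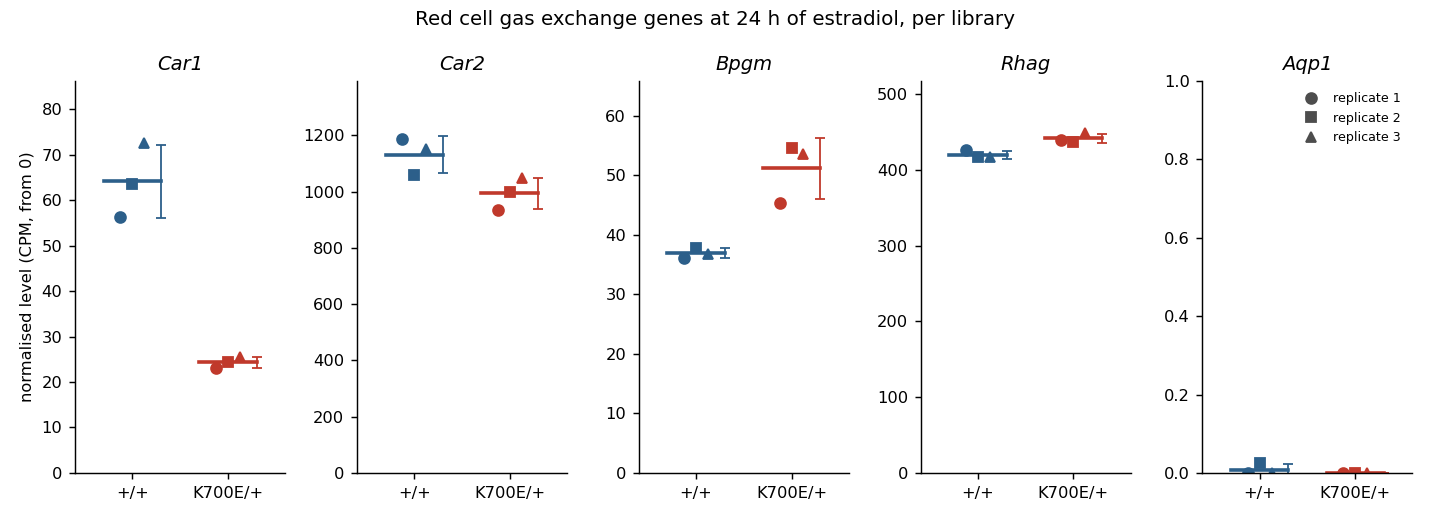
Normalised level of the 5 gas exchange genes in CPM, 1 panel a gene, with 1 point a library, the mean as a line and the SD as a bar (n = 3). Car1 lay at 23.1 to 25.5 CPM in Sf3b1 K700E/+ and at 56.3 to 72.5 CPM in Sf3b1 +/+, Bpgm moved the other way, and Aqp1 stayed at the bottom of its panel, with 1 read in +/+ replicate 2.

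Car1 RNA was lower in each Sf3b1 K700E/+ library than in any Sf3b1 +/+ library. The Sf3b1 K700E/+ libraries held 23.1, 24.5 and 25.5 CPM (1159, 1101 and 1090 reads). The Sf3b1 +/+ libraries held 56.3, 63.6 and 72.5 CPM (2234, 2607 and 2948 reads). The genotypes did not overlap, and the Sf3b1 K700E/+ libraries lay closer together, with a coefficient of variation of 4.87% against 12.7%. The log2 fold change was -1.40 (SE 0.10, 95% interval -1.61 to -1.18, edgeR adjusted p = 8.90e-06), so the Sf3b1 +/+ level was 2.63-fold that of Sf3b1 K700E/+. Car1 alone of the 5 genes was a DEG (absolute log2 fold change over 1 and adjusted p under 0.05), where 6.24% of tested genes were DEGs in this direction and 3.66% had a log2 fold change as low as that of Car1. Without replicate 1 of both genotypes the log2 fold change was -1.44. In the order of a RefSeq table of GRCm38.p6, Car1 lies on chromosome 3 among Car13, Car3 and Car2, and beside the pseudogene Gm16399, which overlaps it on the same strand in GENCODE M21. Over the 3 libraries of each genotype, Gm16399 had 105 reads in Sf3b1 K700E/+ against 106 in Sf3b1 +/+, and Car1 had 3350 against 7789. After normalisation Gm16399 had a log2 fold change of -0.20 (SE 0.30, edgeR adjusted p = 0.617). The next 3 genes beyond Car13 in that order were Rbis, E2f5 and Lrrcc1, and 1 of them passed the test. The shares over all tested genes were 21.3% higher and 23.1% lower. Lrrcc1, the farthest of the 3, was lower (log2 fold change -1.05, SE 0.10, edgeR adjusted p = 5.18e-05). Rbis, the nearest, had a log2 fold change of 0.31 (SE 0.11, edgeR adjusted p = 0.0511) and E2f5 of -0.16 (SE 0.15, edgeR adjusted p = 0.412).

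The event table held 2 events in Car1. The event with enough reads was the skipping of a coding exon of 198 bases, a multiple of 3, at chr3:14842789-14842986 (GRCm39, minus strand), and all 4 of its splice sites were annotated. The exon is printed to show what the longer path keeps, in capitals between the last 15 bases of the exon before it and the first 15 of the exon after it, read from transcript Car1-201 of GENCODE M21, where it is exon 2 of 7. Car1-202 of the same annotation joins the flanking exons directly.
Car1 exon: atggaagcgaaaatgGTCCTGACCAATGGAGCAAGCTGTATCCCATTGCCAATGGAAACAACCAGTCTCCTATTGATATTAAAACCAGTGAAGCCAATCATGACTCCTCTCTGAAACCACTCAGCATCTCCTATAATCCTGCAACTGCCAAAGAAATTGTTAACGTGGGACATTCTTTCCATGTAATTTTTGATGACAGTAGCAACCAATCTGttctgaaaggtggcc
The path with the exon had 571, 620 and 497 reads in Sf3b1 K700E/+ and 1160, 1203 and 1396 in Sf3b1 +/+. The path without it had 9, 7 and 10 reads in Sf3b1 K700E/+ and 22, 13 and 17 in Sf3b1 +/+. Reads of both paths were thus fewer in every Sf3b1 K700E/+ library. PSI (percent spliced in, here the fraction of length-corrected reads on the longer path) was 0.948, 0.962 and 0.935 in Sf3b1 K700E/+ and 0.938, 0.964 and 0.959 in Sf3b1 +/+. The genotypes overlapped, and the difference of -0.0055 was smaller than the SD of 0.014 within each genotype (edgeR adjusted p = 0.869). The other event, an alternative acceptor that shifts by 3 bases, had 1 to 20 reads in a library and was not tested.

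Car2 RNA stood at a high level in both genotypes, and its difference did not pass the test. Car2 was at 936, 997 and 1047 CPM in the Sf3b1 K700E/+ libraries and at 1187, 1057 and 1150 CPM in the Sf3b1 +/+ libraries. Each Sf3b1 K700E/+ library was below each Sf3b1 +/+ library, the nearest being 1047 and 1057 CPM. The log2 fold change was -0.19 (standard error 0.07, 95% interval -0.35 to -0.03, unadjusted p = 0.0255, edgeR adjusted p = 0.0556). The interval therefore holds falls of Car2 no larger than 0.35 on the log2 scale. With the replicate number as a block the log2 fold change was again -0.19 and passed (edgeR adjusted p = 0.0187), as it did with scaling by total counts (log2 fold change -0.23, edgeR adjusted p = 0.0201). Without replicate 1 of both genotypes it was -0.11 (edgeR adjusted p = 0.152). Car2 had no event in the splicing table.

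The balance of the cytosolic carbonic anhydrases was compared within each library, where no scaling between libraries enters. There were 40.5, 40.7 and 41.1 Car2 reads for each Car1 read in Sf3b1 K700E/+, and 21.1, 16.6 and 15.9 in Sf3b1 +/+. The Sf3b1 K700E/+ libraries were nearly alike, and the Sf3b1 +/+ libraries were all lower and more spread. The log2 ratio of Car1 to Car2 was -5.35 ± 0.012 (SD, n = 3) in Sf3b1 K700E/+ against -4.15 ± 0.22 (SD, n = 3) in Sf3b1 +/+. The difference of -1.20, a 2.30-fold change of the ratio, had p = 0.10 in an exact two-sided permutation test, the smallest p that 3 against 3 libraries allow. Per exon length, Car1 made up 4.50 to 4.57% of the reads of all 16 carbonic anhydrase genes in Sf3b1 K700E/+ and 8.41 to 10.9% in Sf3b1 +/+, and Car2 made up 95.2% of them in each Sf3b1 K700E/+ library.

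**Figure D2:**
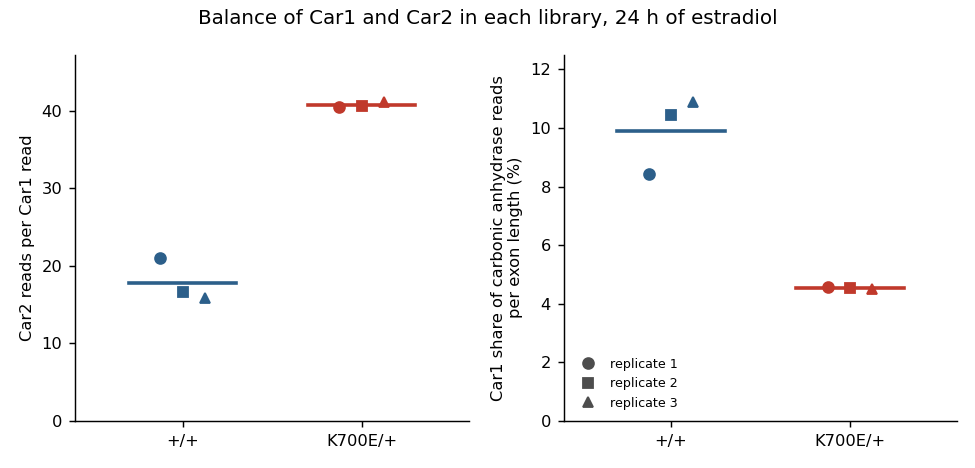
Left, Car2 reads per Car1 read in each library. Right, Car1 as a percentage of the reads of all 16 carbonic anhydrase genes, each divided by exon length. Points are libraries and lines are means (n = 3). The Sf3b1 K700E/+ libraries lie at 40.5 to 41.1 reads and 4.50 to 4.57%, apart from the Sf3b1 +/+ libraries at 15.9 to 21.1 reads and 8.41 to 10.9%.

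The other 14 carbonic anhydrase genes added 84 to 99 reads to a library, 0.170 to 0.199% of the family. Of these 6 had no read, among them Car13, the neighbour of Car1, and Car4, a membrane-bound form. Car3, between Car1 and Car2 on chromosome 3, had 25 reads in Sf3b1 K700E/+ against 30 in Sf3b1 +/+ and was not tested. Only 3 of the 14 could be tested, with 0 higher and 1 lower by edgeR (the same numbers at an unadjusted p under 0.05 and with DESeq2). Of all tested genes 21.3% were higher and 23.1% lower with edgeR. The median log2 fold change of the 3 was -0.02, where the median of all tested genes was -0.01. Car15, a membrane-anchored form, had 13, 15 and 16 reads in Sf3b1 K700E/+ and 29, 28 and 25 in Sf3b1 +/+. The Car15 libraries did not overlap, and the gene was lower by a log2 fold change of -1.07 (SE 0.24, edgeR adjusted p = 0.00675), at under 1 CPM throughout. The mitochondrial form Car5a had a log2 fold change of 0.27 (SE 0.25, edgeR adjusted p = 0.397) and Car7, a cytosolic form, of -0.02 (standard error 0.23).

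Bpgm rose in Sf3b1 K700E/+ cells. Its level in the Sf3b1 K700E/+ libraries was 45.4, 54.7 and 53.5 CPM (2273, 2455 and 2290 reads), and in the Sf3b1 +/+ libraries 36.1, 37.8 and 36.8 CPM (1433, 1549 and 1494 reads). The genotypes did not overlap, and here the spread was in Sf3b1 K700E/+, whose replicate 1 was the lowest, with a coefficient of variation of 9.93% against 2.29%. The log2 fold change was 0.47 (SE 0.08, 95% interval 0.29 to 0.65, edgeR adjusted p = 0.00140), a rise of 38.7%. Of all tested genes 21.3% were higher at this threshold, and 13.5% had a log2 fold change at or over that of Bpgm. Without replicate 1 of both genotypes the log2 fold change was 0.54.

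The single Bpgm event concerned 268 bases at the end of a coding exon. The longer path runs to the annotated donor at position 34464885 of chromosome 6 (GRCm39, plus strand), the shorter path leaves at an unannotated donor at 34464617, and both join the acceptor at 34481206. The bases are printed because they show the donor of the shorter path. The 268 bases of exon 2 of Bpgm-201 (GENCODE M21) that the shorter path drops are in capitals, with 15 bases on each side, and they open with GT, the bases that begin most introns. Their loss would shift the reading frame.
Bpgm exon end: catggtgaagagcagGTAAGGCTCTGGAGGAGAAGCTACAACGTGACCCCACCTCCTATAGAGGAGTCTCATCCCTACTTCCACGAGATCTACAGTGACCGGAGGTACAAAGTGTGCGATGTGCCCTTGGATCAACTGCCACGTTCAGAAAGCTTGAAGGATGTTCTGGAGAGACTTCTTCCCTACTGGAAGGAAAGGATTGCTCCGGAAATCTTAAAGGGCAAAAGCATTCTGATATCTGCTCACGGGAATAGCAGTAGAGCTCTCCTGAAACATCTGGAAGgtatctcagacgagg
The longer path had 1031, 1051 and 1069 reads in Sf3b1 K700E/+ and 633, 688 and 688 in Sf3b1 +/+. The shorter path had 8, 11 and 9 reads in Sf3b1 K700E/+ and 9, 8 and 4 in Sf3b1 +/+. PSI was 0.966, 0.955 and 0.964 in Sf3b1 K700E/+ and 0.940, 0.950 and 0.975 in Sf3b1 +/+. The libraries overlapped, and the difference of 0.0067 was smaller than the SD of 0.018 in Sf3b1 +/+ (edgeR adjusted p = 0.820). Of the 2 tested events in these genes 0 were called, where 6.3% of all 17720 tested events were, 5.06% of exon skipping events and 3.37% of alternative donor events. Neither had an unadjusted p under 0.05 (0.679 for Car1 and 0.591 for Bpgm), and with limma on logit PSI likewise 0 were called. Car2, Rhag and Aqp1 had no event in the table.

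**Figure D3:**
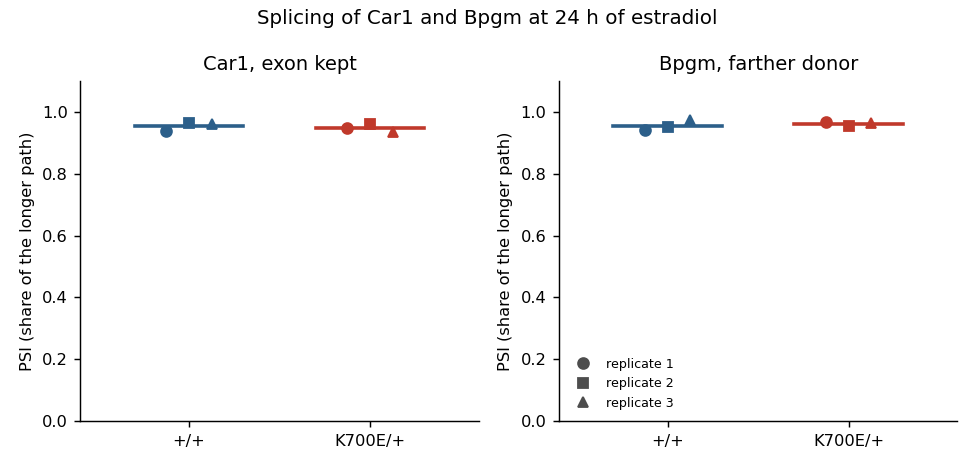
PSI of the Car1 exon of 198 bases and of the Bpgm exon end of 268 bases in each library, on axes from 0 to 1, with the mean as a line (n = 3). All points lie between 0.935 and 0.975, and the genotypes overlap in both panels.

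Rhag kept nearly the same level. It was measured at 439, 437 and 448 CPM in Sf3b1 K700E/+ libraries and in Sf3b1 +/+ libraries at 426, 417 and 416 CPM. The libraries did not overlap, but the distance from 426 to 437 CPM is small, and the coefficients of variation were 1.32% and 1.23%. The log2 fold change was 0.07 (SE 0.05, 95% interval -0.04 to 0.19, edgeR adjusted p = 0.284), which holds rises of at most 0.19 and falls of at most 0.04 on the log2 scale. Rhag thus had no overlap between the genotypes without passing the test, and the lack of overlap was shared by all 4 tested gas exchange genes and by 54.3% of all tested genes. Of the 4 tested genes 1 was higher and 1 lower, where 21.3% of tested genes were higher and 23.1% lower.

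Rhag is anchored with the Rh protein and band 3 in a complex of the red cell membrane. Of 11 other genes listed for the Rh family and for this part of the membrane, 9 were tested. Of these 4 were higher, 3 lower and 2 did not pass, with a median log2 fold change of 0.26, beside 21.3% of all tested genes higher and 23.1% lower. With the replicate number as a block, and likewise without replicate 1 of both genotypes, 5 were higher and 3 lower. Over all tested genes 27.7% were higher and 29.2% lower with the block, and 25.3% and 26.9% without replicate 1. Rhd, the Rh polypeptide that assembles with Rhag, had 67.7, 70.0 and 70.9 CPM in Sf3b1 K700E/+ and 96.2, 92.8 and 90.0 CPM in Sf3b1 +/+. The Rhd libraries did not overlap, and its log2 fold change was -0.42 (SE 0.06, edgeR adjusted p = 0.000366). Cd47, a signalling protein of the same complex, was also lower (log2 fold change -0.50, edgeR adjusted p = 0.00152), as was Epb42, protein 4.2, which ties band 3 to the skeleton (-0.37, edgeR adjusted p = 0.00335). Icam4, an adhesion protein of this complex, was higher, with a log2 fold change of 0.75 (edgeR adjusted p = 0.000609). Band 3 itself, Slc4a1, was at 2121 CPM in Sf3b1 K700E/+ and 1759 CPM in Sf3b1 +/+ and did not pass (log2 fold change 0.27, SE 0.14, edgeR adjusted p = 0.138), though it did with the block (log2 fold change 0.26, edgeR adjusted p = 0.00422) and without K700E/+ replicate 1 (0.41, edgeR adjusted p = 0.0123). Rhbg and Rhcg, the Rh glycoproteins of other tissues, had at most 1 read in a library.

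Aqp1 was not detected beyond a single read. All Sf3b1 K700E/+ libraries held 0 reads, and the Sf3b1 +/+ libraries held 0, 1 and 0. At 3 counts over the libraries of a genotype, a count of 0 allows up to 0.0218 CPM in Sf3b1 K700E/+, for counting error only. No fold change is given. The level of Aqp1 before estradiol or beyond 24 h was not analysed here.

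Other aquaporins were expressed at 24 h, and 4 of 11 were tested, with 1 higher, 2 lower and 1 that did not pass (median log2 fold change -0.42). Over all tested genes 21.3% were higher and 23.1% lower. The other 7 aquaporins had no read. Aqp9, which passes glycerol as well as water and is known from mouse red cells, had 17.1, 18.1 and 16.7 CPM in Sf3b1 K700E/+ and 37.4, 34.1 and 27.4 CPM in Sf3b1 +/+. The Aqp9 libraries did not overlap (log2 fold change -0.93, SE 0.11, edgeR adjusted p = 0.000204). Aqp3, another channel that passes glycerol, was lower by a log2 fold change of -0.69 (SE 0.09, edgeR adjusted p = 0.000235). Aqp8, a channel that also passes ammonia and hydrogen peroxide, had 18.7, 26.5 and 35.7 CPM in Sf3b1 K700E/+ and 8.97, 8.64 and 10.9 CPM in Sf3b1 +/+. Aqp8 was thus higher in each Sf3b1 K700E/+ library, though spread within that genotype (log2 fold change 1.50, SE 0.21, edgeR adjusted p = 0.000501). Aqp11, an intracellular channel, did not pass (log2 fold change -0.14, edgeR adjusted p = 0.325).

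**Figure D4:**
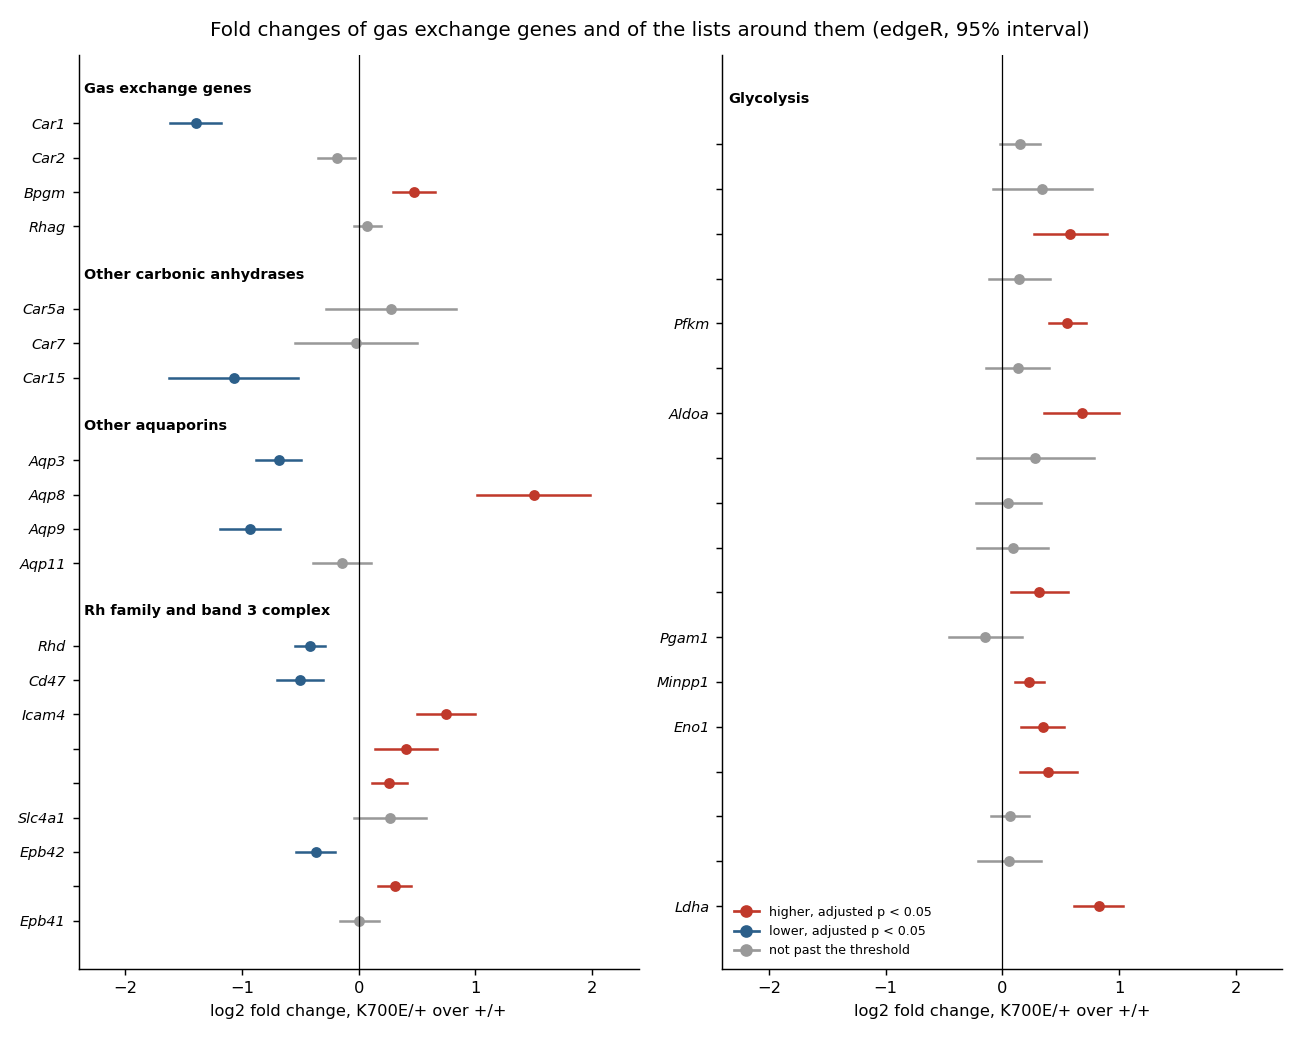
Log2 fold change of Sf3b1 K700E/+ over Sf3b1 +/+ for the tested gas exchange genes and the tested genes of 4 lists around them, with 95% intervals from edgeR. Genes of these lists that the text does not name are drawn without a name. Red marks genes higher and blue genes lower at an adjusted p under 0.05. Car1 lies at -1.40 and Bpgm at 0.47, and 8 of 18 glycolysis genes are higher with 0 lower.

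Bpgm branches off glycolysis, and 18 of 20 other genes of that pathway were tested. Of these 8 were higher, 0 lower and 10 did not pass, where 21.3% of all tested genes were higher and 23.1% lower, with a median log2 fold change of 0.26 against -0.01 over all tested genes. With the replicate number as a block 12 were higher and 0 lower, where 27.7% of all tested genes were higher and 29.2% lower. At an unadjusted p under 0.05 edgeR also gave 8 and 0, DESeq2 called 8 higher and 1 lower, and without replicate 1 of both genotypes edgeR called 9 higher and 1 lower. Ldha, lactate dehydrogenase A, was higher by a log2 fold change of 0.82 (SE 0.09, edgeR adjusted p = 0.000134). The muscle-type phosphofructokinase gene Pfkm rose by 0.56, aldolase Aldoa by 0.68 and enolase Eno1 by 0.35 (adjusted p = 0.000252, 0.00410 and 0.00794 from edgeR). Minpp1, a phosphatase that also removes a phosphate from 2,3-bisphosphoglycerate, was higher by a log2 fold change of 0.23 (edgeR adjusted p = 0.00837). Pgam1, the phosphoglycerate mutase of the main pathway, was at 99.3 CPM in Sf3b1 K700E/+ and 110 CPM in Sf3b1 +/+ and did not pass (edgeR adjusted p = 0.429), but it was lower without +/+ replicate 1 (log2 fold change -0.30, edgeR adjusted p = 0.0102). Summed over the list, glycolysis RNA was at 12533 to 15742 CPM in Sf3b1 K700E/+ and 9592 to 12172 CPM in Sf3b1 +/+, with replicate 1 the lowest of each genotype.

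Bicarbonate made by Car1 and Car2 leaves through anion exchangers, and 8 of 15 transporters of bicarbonate, protons and lactate were tested. Of these 3 were higher and 1 lower, or 4 and 2 with the replicate number as a block, with a median log2 fold change of 0.20. Over all tested genes 21.3% were higher and 23.1% lower, or 27.7% and 29.2% with the block. The lactate carrier Slc16a1 was higher by a log2 fold change of 0.97 (SE 0.13, edgeR adjusted p = 0.000372). Slc4a7, a sodium bicarbonate cotransporter, was at 0.27 (edgeR adjusted p = 0.0394), a call that was lost under 7 of 13 alternatives. These were scaling by total counts, no filter on low counts, the fit without replicate 1 of both genotypes, and the fits without K700E/+ replicate 1 or 2 or without +/+ replicate 2 or 3. The anion exchanger Slc4a2 had 20.1, 19.3 and 20.8 CPM in Sf3b1 K700E/+ and 25.7, 29.9 and 30.7 CPM in Sf3b1 +/+, and was lower (log2 fold change -0.52, SE 0.09, edgeR adjusted p = 0.00132).

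Of the 80 tested splicing events in the 25 genes with an event in these and the remaining transport, membrane, glycolysis and hemoglobin lists, 2 were called, or 2.5%. This is below the 6.3% called over all 17720 tested events. Both were retained introns with a lower PSI in Sf3b1 K700E/+. In Slc4a2, an intron of 97 bases (event at chr5:24639975-24640151, GRCm39, plus strand) had a PSI of 0.158, 0.0926 and 0.120 in Sf3b1 K700E/+ and 0.336, 0.285 and 0.253 in Sf3b1 +/+. It rested on 36 to 49 reads in a library (PSI difference -0.17, edgeR adjusted p = 0.0344), and the call was lost under 9 of 13 alternatives, without any 1 library except K700E/+ replicate 1 among them. In Epb41, protein 4.1 of the membrane skeleton, an intron of 1147 bases (event at chr4:131663141-131664366, GRCm39, minus strand) had a PSI of 0.311, 0.231 and 0.293 in Sf3b1 K700E/+ and 0.469, 0.550 and 0.549 in Sf3b1 +/+. The Epb41 libraries did not overlap (PSI difference -0.24, edgeR adjusted p = 0.00936), and the call was lost without K700E/+ replicate 2 or +/+ replicate 3. Another retained intron of Epb41, of 160 bases, went the other way and was not called (PSI difference 0.31, edgeR adjusted p = 0.126). Its libraries did not overlap either, on 10 to 27 reads in a library. Epb41 as a whole had a log2 fold change of 0.01 (edgeR adjusted p = 0.960).

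Of 10 tested transporters of other solutes and ions of the red cell, 7 were higher and 2 lower (median log2 fold change 0.46). Over all tested genes 21.3% were higher and 23.1% lower, or 27.7% and 29.2% with the replicate number as a block. The same shares stand beside the hemoglobin and regulator counts below. Kcnn4, the calcium-activated potassium channel, was higher by 0.94, the potassium chloride cotransporter Slc12a4 by 0.77 and the calcium pump Atp2b4 by 0.48, all on the log2 scale (adjusted p = 8.38e-06, 0.000171 and 0.000331 from edgeR). Hemoglobin carries oxygen and takes up protons. Of its 7 tested genes 1 was higher and 1 lower, or 2 and 2 with the replicate number as a block. The embryonic chain Hba-x was higher by a log2 fold change of 1.41 and the adult chain Hbb-bt lower by -1.66 (standard errors 0.27 and 0.36, adjusted p = 0.00235 and 0.00501 from edgeR). Reads of near-identical globin copies, such as Hbb-bt and Hbb-bs, can be split between them in counting, so the Hbb-bt value is uncertain. The Hba-x value rests on a low level, at 4.60 CPM in Sf3b1 K700E/+ and 1.72 CPM in Sf3b1 +/+. Among 10 genes listed as GATA1 and erythroid regulators 6 were higher and 1 lower, or 7 and 1 with the block. Lmo2 was at 0.58, Zfpm1 at 0.62 and Lyl1 at -0.56 on the log2 scale.

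The genes whose level over the 6 libraries was most like that of each tested gas exchange gene were taken from 7996 others with a mean of at least 10 CPM over the 6 libraries, as a description. Among those nearest to Car1 were ENSMUSG00000120166 and Cdkn1a, with Pearson r of 0.9998 and 0.999. Nearest to Bpgm were Tubb4b, Gatc and Gm13436 (r of 0.996, 0.996 and 0.995), and nearest to Car2 were Acd, Ube2l3 and Sys1 (0.991, 0.985 and 0.980). Nearest to Rhag were Zfp341, Bag5 and Nup50 (0.997, 0.995 and 0.994). The 6 points of each correlation share genotype, replicate number and library depth. Between the gas exchange genes themselves, over the same 6 libraries, r was 0.80 for Car1 with Car2 and 0.88 for Bpgm with Rhag. Pairs with a negative r were Car1 with Bpgm (-0.90), Car1 with Rhag (-0.94), Car2 with Bpgm (-0.67) and Car2 with Rhag (-0.59).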

How the data were processed

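The authors aligned 75-bp paired reads of stranded poly(A) libraries with STAR 2.7.9 on GRCm39, per the labels, and the deposited table gives raw counts, not normalized, for each gene. The counting strand setting and the annotation release are not given in the sources used here. They also deposited, per splicing event of KisSplice, packed read numbers of both paths for 2 read files a library and a PSI value. The deposited counts went into edgeR 4.0.16 under R 4.3.3 (TMM, filterByExpr by genotype, quasi-likelihood F test, Benjamini-Hochberg adjustment over 12547 genes). CPM are counts scaled to library size after TMM. Levels per kb used exon lengths of GENCODE M21, found for 12267 tested genes. A symbol on more than 1 row was taken from the row with more reads.

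PSI was recomputed as the share of the longer path, each path's reads divided by its length, for 17720 events that had 10 or more reads in each of the libraries, and edgeR tested the interaction of path and genotype. An event was called at an adjusted p under 0.05 and a PSI difference over 0.10. The recomputed and the deposited PSI had a Pearson r of 0.983 over 104988 values. KissDE was not run. Files and reference differ in build, so the printed sequences were matched by the spacing of splice sites, not by coordinates. Correlations used log2 of CPM plus 0.5.

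The members and gene lists were chosen with earlier results of these data known. Named genes are the 5 members, from each list the called genes, at most 4, that had the lowest adjusted p, the 3 genes most like each member, Sf3b1 and Gata1. Minpp1, Pgam1, Slc4a1, Car5a, Car7, Car3, Car13, Car4, Aqp11, Epb41, Gm16399, Lrrcc1, E2f5 and Rbis were added for their place in the pathway or beside Car1 after their values were seen. Some genes that meet this rule are not reported here, and the counts over lists include them. Deviations from the genotype means correlated between libraries with the same replicate number (0.627, 0.484 and 0.480 over 8771 genes), so the numbers were taken to pair the libraries, and the block was an alternative. Within a genotype, libraries differed by more than sampling noise (chi-square per degree of freedom 8.07 to 35.8). On simulated counts (12393 genes, 50 changed at each size and 12193 unchanged), 4% of genes changed 1.2-fold, 84% changed 1.5-fold and 96% changed 2-fold were called. In the data 2670 genes were called higher and 2899 lower, and the Benjamini-Hochberg adjustment is milder where more genes change. These simulated shares therefore do not give the share found in the data. On simulated events (17379, 50 changed at each size), 10% were called at a change of the read share of 0.1 and 64% at 0.2. The changed events had a fixed noise setting and began at a lower share of the longer path than the Car1 and Bpgm events. The simulated event shares therefore do not cover those 2 events. Alternatives changed the normalization, the filter, the test (DESeq2 1.42.0, limma 3.58.1), the coverage minimum, the reads counted, the PSI threshold and the libraries.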

Additional observations from a re-analysis of the deposited data

How the results depend on the processing

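Car1 stayed lower and Bpgm higher, each past the threshold, under all 13 alternatives run, with log2 fold changes of -1.48 to -1.30 and 0.43 to 0.56, and Rhag did not pass under any (0.03 to 0.09). Car2 passed with scaling by total counts (-0.23) and with the replicate block (-0.19), which made 2 members lower in place of 1 in each, and not under the other 11 (-0.22 to -0.11). Beside Car2, the block changed the call of Slc4a1 (0.26, edgeR adjusted p = 0.00422), 2 of the 65 values of genes and events that it was run for. Leaving out each library in turn gave PSI differences of -0.0133 to 0.00137 for Car1 and -0.00079 to 0.0165 for Bpgm, and without replicate 1 of both genotypes, an alternative chosen after seeing the data, -0.0031 for Bpgm. No member event was called under any alternative. All events called numbered 1116, against 558 with limma on logit PSI and 472 at a PSI threshold of 0.20. Scaling by total counts turned the log2 fold changes of Sf3b1 to -0.029 and of Epb41 to -0.038. Leaving out each library in turn gave log2 fold changes on both sides of 0 for Car7 (-0.10 to 0.060), Epb41 (-0.040 to 0.065) and Gm16399 (-0.44 to 0.083), none past the threshold. Of 766 values of 59 genes and events other than the members, 708 kept their call and direction. The difference of the log2 ratio of Car1 to Car2 lay between -1.33 and -1.12, where 3 against 2 libraries cannot give a p under 0.20. Aqp1 has no fold change under any alternative. Depth limits Aqp1 and the shorter paths of the Car1 and Bpgm events, which rest on 4 to 22 reads in a library.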
